A study of Mus musculus with 13 samples.

Results

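Cholesterol synthesis, transport and sterol control were followed through 31 listed genes of the deposited table of 48795 mouse genes, all of which passed the low-count filter in the 3 comparisons made. The list was drawn up by function and holds 18 enzymes of cholesterol synthesis, 5 genes of SREBP control, 4 genes of efflux and the LXR receptors, 2 genes of lysosomal cholesterol egress, and 2 genes of esterification and hydroxylation. RNA was sequenced from the right brain hemisphere, without olfactory bulb and cerebellum, of 13 mice at postnatal day 11, all on a C57BL/6J background. The 5 nlsYAP5SA mice had the genotype NexCre +/- YAP5SAnls +/-, and the 5 control mice had NexCre -/- YAP5SAnls +/-, so that the controls carried the silent transgene as well. A further 3 C57BL/6 mice were WT and came from other litters. In the mutants Cre was driven from the Nex (Neurod6) locus, which is active in neuronal precursors of cortex and hippocampus, and it released a form of YAP1 that stays active in the nucleus. A hemisphere therefore mixed recombined cells with glia, vessels and other cells that never expressed Cre, and in such bulk samples fewer cells of a type and less RNA per cell cannot be told apart.

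The brain makes nearly all of its own cholesterol, because the blood-brain barrier keeps out lipoproteins, and demand peaks when myelin is laid down after birth. Acetyl-CoA is built up through mevalonate to squalene and lanosterol, which is then trimmed to cholesterol. The transcription factor encoded by Srebf2 drives these enzymes when sterols are scarce, while SCAP escorts it to the Golgi for cleavage and the INSIG proteins hold it back. When sterols are plentiful, the LXR receptors (Nr1h2, Nr1h3) raise the exporters Abca1 and Abcg1 and the related factor gene Srebf1. Astrocytes and oligodendrocytes are the main makers of cholesterol at this age, and neurons dispose of it through the hydroxylase Cyp46a1. In the mouse, Acat2 denotes the cytosolic thiolase at the start of the pathway and not the acyltransferase Soat2.

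Promoter stretches are shown for 4 members that fell in the mutants and for Abca1, which rose, since sterol-controlled promoters are known for an SREBP element beside CCAAT and GC boxes. The sequences are the RefSeq reference upstream of the annotated start (GRCm38.p6), read 5′ to 3′ on the strand of the gene, with matches to the sterol element TCACNCCAC, to the box CCAAT or to the box GGGCGG on either strand in capitals.
Hmgcs1 (chr13:119690101-119690350, + strand): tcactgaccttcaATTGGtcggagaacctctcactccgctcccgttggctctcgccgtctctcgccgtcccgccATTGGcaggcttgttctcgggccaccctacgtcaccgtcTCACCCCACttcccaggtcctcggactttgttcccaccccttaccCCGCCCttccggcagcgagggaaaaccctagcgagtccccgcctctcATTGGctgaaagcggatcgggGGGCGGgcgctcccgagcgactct
Cyp51 (chr5:4104747-4104947, - strand): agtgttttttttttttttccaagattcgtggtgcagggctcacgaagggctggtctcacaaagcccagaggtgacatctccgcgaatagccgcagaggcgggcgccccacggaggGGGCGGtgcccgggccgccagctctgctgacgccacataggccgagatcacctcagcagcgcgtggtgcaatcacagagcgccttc
Insig1 (chr5:28071162-28071362, + strand): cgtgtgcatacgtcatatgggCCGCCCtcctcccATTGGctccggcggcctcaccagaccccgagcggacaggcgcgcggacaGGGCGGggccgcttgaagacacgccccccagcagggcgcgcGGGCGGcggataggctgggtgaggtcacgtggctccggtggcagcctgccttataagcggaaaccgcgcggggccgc
Mvd (chr8:122443423-122443672, - strand): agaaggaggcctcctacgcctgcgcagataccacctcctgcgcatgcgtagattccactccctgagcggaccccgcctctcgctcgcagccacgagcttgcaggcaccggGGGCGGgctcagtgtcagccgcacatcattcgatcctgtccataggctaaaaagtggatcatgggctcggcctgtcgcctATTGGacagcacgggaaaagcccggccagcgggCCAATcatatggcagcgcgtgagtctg
Abca1 (chr4:53159896-53160145, - strand): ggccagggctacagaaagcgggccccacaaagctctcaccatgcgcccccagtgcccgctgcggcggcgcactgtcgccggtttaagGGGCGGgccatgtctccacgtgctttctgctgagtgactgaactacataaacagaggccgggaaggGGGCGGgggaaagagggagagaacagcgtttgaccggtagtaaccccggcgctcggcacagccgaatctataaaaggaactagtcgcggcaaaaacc
The sterol element appeared once, in Hmgcs1. The printed stretches of Hmgcs1, Insig1 and Mvd held CCAAT boxes, and that of Abca1 held GC boxes and no CCAAT box. The Cyp51 and Insig1 stretches stop 50 bases before the start, and the rest of the Cyp51 promoter of 300 bases held 1 CCAAT box.

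Promoters of 300 bases were at hand for 26 of the 31 genes, as 35 promoters because some genes have several starts. The genes not matched were Sqle, Fdft1, Fdps, Abcg1 and Npc1, so that 15 of the 18 synthesis genes were matched, again with 18 promoters. A CCAAT box lay in 14 of these 18 synthesis promoters (77.8%) and in 37.4% of all 32851 promoters. None of the 4 promoters of Abca1, Nr1h2 and Nr1h3 held one. GC boxes lay in 83.3% of the synthesis promoters and 35.7% of all promoters. The exact sterol element was rare, at 1.24% of all promoters, and Hmgcs1 was the only member with it. A direct repeat of AGGTCA with a spacer of 4 bases, the form LXR binds, was searched with up to 2 mismatches over its 12 bases. It lay in 3.02% of all promoters and in a single member promoter, a downstream start of Dhcr7. These matches describe letters in a window and say nothing of binding.

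Sequencing depth was similar in all mice, at 20871566 to 25524349 estimated counts, and levels are given as CPM, normalised read counts after TMM scaling. Neurod6, the locus that carries Cre, served as a check of the labels and fell to 50.5% of control in the mutants (38.9 to 56.8 against 91.5 to 110 CPM). Sex was not recorded. The summed level of 4 Y-linked genes exceeded 1 CPM in 5 of 5 controls, in nlsYAP5SA replicates 3 and 4 only, and in C57BL/6 replicates 1 and 3, so that mice without Y-linked RNA made up 3 of 5 mutants and 0 of 5 controls. Genotype and this imbalance cannot be fully told apart, and the fits within the mice that had Y-linked RNA are given after the levels of each group of genes.

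The main comparison asked how the pathway differed between nlsYAP5SA mice and controls. Synthesis genes and Insig1 were lower, and Srebf1 and Abca1 were higher. Of the 31 genes, 17 passed edgeR's quasi-likelihood test at an adjusted p of 0.05 or less, 15 lower and 2 higher, where 10.8% of all 16315 genes tested were called (3.44% lower and 7.36% higher). All 18 synthesis genes had a lower mean in the mutants and 13 of them were called lower. Their median log2 fold change was -0.38, beside -0.005 over all genes tested. In 11 of the 18, every mutant lay below every control, and the share of all genes tested with that pattern was 3.57%. The synthesis genes not called were Mvk, Fdps, Lss, Hsd17b7 and Sc5d.

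**Figure D1:**
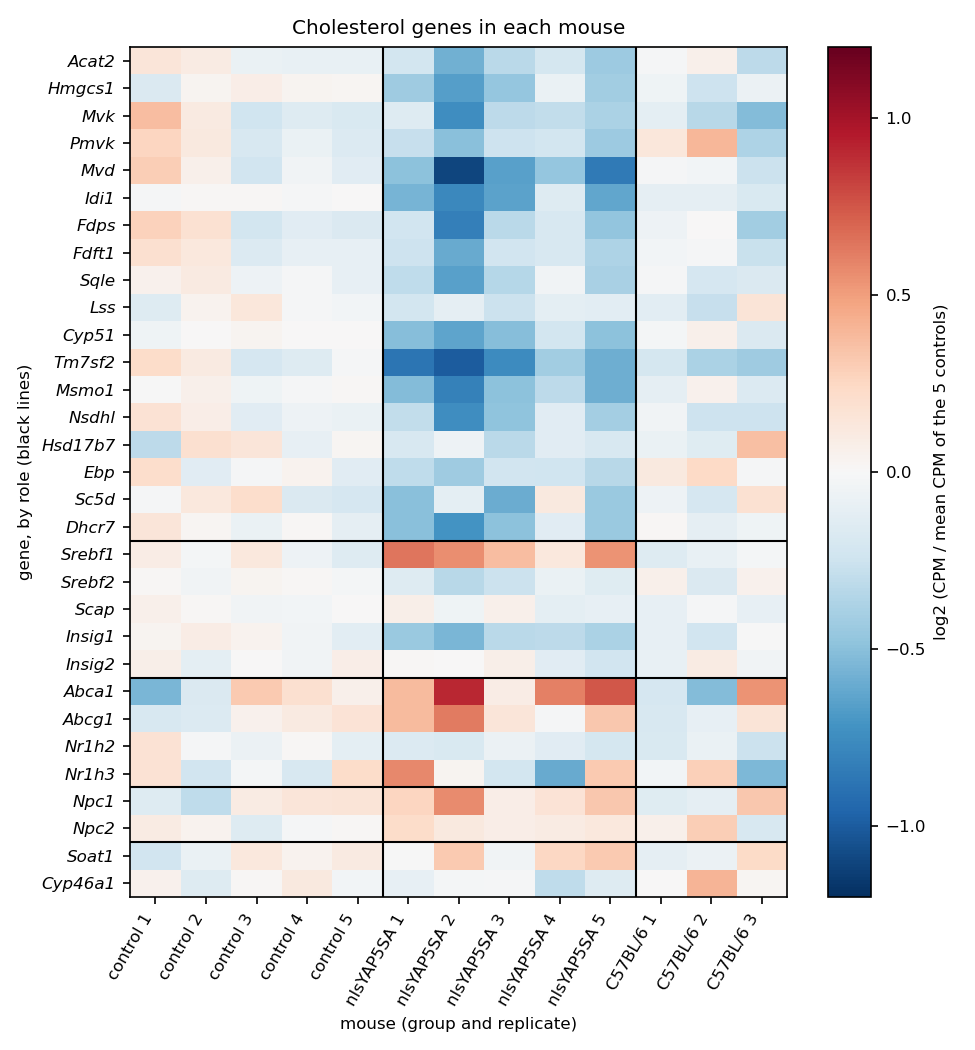
Level of each of the 31 genes (vertical axis, grouped by role with black lines) in each of the 13 mice (horizontal axis), as the log2 ratio of its CPM to the mean of the 5 controls, with blue for lower and red for higher. The block of synthesis genes at the top is blue in most nlsYAP5SA mice, most deeply in replicate 2, and Abca1 and Srebf1 are red there.

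At the head of the pathway, Acat2 was measured at 86.6, 83.7, 74.0, 73.3 and 73.3 CPM in control replicates 1 to 5 and at 66.9, 52.4, 62.6, 67.5 and 57.8 CPM in the mutants. The groups did not overlap, and Acat2 fell by 0.35 on the log2 scale (SE 0.08, adjusted p = 0.0124 by edgeR). Hmgcs1, which condenses acetoacetyl-CoA to HMG-CoA, was at 645, 747, 768, 746 and 739 CPM in controls and 542, 460, 529, 689 and 546 CPM in mutants. Mutant replicate 4 lay within the control range, the other 4 below it, and the change was -0.40 (SE 0.09, adjusted p = 0.0132). Per kilobase of exon, Hmgcs1 was the most abundant of the 31 genes, at 159 ± 10.5 (SD, n = 5) CPM per kb in controls, while the next, Idi1, was at 31.7 ± 0.29.

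The mevalonate kinases act next in the pathway. Pmvk, the second kinase, was at 40.0, 36.2, 29.3, 31.7 and 29.9 CPM in controls and 27.6, 23.6, 28.1, 28.6 and 24.7 CPM in mutants, with no overlap and a change of -0.34 (adjusted p = 0.0400). Its call was lost on leaving out control 1, 2 or 4 or mutant 1, 2 or 5 (adjusted p 0.0565 to 0.104). Mvk had the same sign (-0.37, SE 0.13) but was not called, at an adjusted p of 0.103.

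Mvd and Idi1, which turn mevalonate diphosphate into the isoprene units, changed more. Mvd encodes the decarboxylase and was at 39.3, 33.5, 27.4, 31.1 and 29.2 CPM in controls against 22.8, 15.0, 20.4, 23.3 and 17.8 CPM in mutants. The groups were apart, and the mutant level was 61.8% of control (log2 fold change -0.70, SE 0.13, adjusted p = 0.0037). Idi1, the isomerase, was nearly constant among controls at 110, 112, 112, 110 and 111 CPM and lay at 75.6, 65.1, 71.2, 99.4 and 71.9 CPM in mutants. It fell by 0.54 on the log2 scale (SE 0.09, adjusted p = 0.00239), and mutant 4 was the only one near the controls.

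Among the enzymes that join isoprenes into squalene and close the ring, changes were modest and the calls lay near the threshold. Fdft1, squalene synthase, was at 132, 126, 103, 108 and 108 CPM in controls and 96.9, 75.7, 98.1, 101 and 89.3 CPM in mutants (log2 fold change -0.33, adjusted p = 0.0395). Its groups did not overlap by a narrow margin, and the call was lost without control 1, 2, 4 or 5 or mutant 1, 2 or 5 (adjusted p 0.0515 to 0.0970), with log2 fold changes of -0.37 to -0.26 over all fits that left out a mouse. Sqle, the epoxidase that controls flux after squalene, was at 148, 154, 137, 142 and 134 CPM in controls and 116, 90.8, 113, 139 and 109 CPM in mutants (-0.34, adjusted p = 0.0347). Mutant 4 again reached the control range. The Sqle call was lost without control 1, 2 or 4 or mutant 1, 2, 3 or 5 (adjusted p 0.0601 to 0.0898), with log2 fold changes of -0.42 to -0.26 over all such fits. Fdps, the farnesyl diphosphate synthase, had a change of -0.39 (adjusted p = 0.0695) and was called without control 3 (adjusted p = 0.0448). Lss, the cyclase that makes lanosterol, had the smallest change of the 18 synthesis genes, -0.17 (adjusted p = 0.0882), and was called without control 1 (adjusted p = 0.0334).

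The clearest changes lay in the trimming of lanosterol. Cyp51, the lanosterol demethylase, was at 131, 137, 139, 137 and 137 CPM in controls and 95.8, 87.9, 95.3, 117 and 97.1 CPM in mutants. No mutant reached the controls, and the gene fell by 0.47 on the log2 scale (SE 0.07, adjusted p = 0.000661). Msmo1, the methylsterol oxygenase, was at 114, 119, 110, 113 and 115 CPM in controls and 79.6, 65.3, 81.0, 92.0 and 75.9 CPM in mutants, which was 68.7% of control (-0.54, SE 0.08, adjusted p = 0.000512). Of the 31 genes, Msmo1 alone was called in each of 20 alternative fits. Tm7sf2, a sterol reductase, had the largest fold change of the synthesis genes, -0.71 (SE 0.12, adjusted p = 0.00176). Against the C57BL/6 mice the same mutants were at -0.39 (adjusted p = 0.112), with overlap. Its levels were 30.4, 28.2, 22.7, 23.4 and 25.8 CPM in controls and 14.2, 13.1, 15.5, 19.6 and 17.4 CPM in mutants, without overlap.

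The late steps were lower by smaller amounts. Nsdhl, a sterol dehydrogenase encoded on chromosome X, was at 49.6, 46.4, 40.1, 42.2 and 41.7 CPM in controls and 35.8, 26.3, 31.4, 40.0 and 33.2 CPM in mutants (-0.40, adjusted p = 0.0222). The highest mutant and the lowest control all but met, and the call was lost without control 2 or mutant 5 (adjusted p 0.0561 and 0.0554). Ebp, the X-linked sterol isomerase, was at 16.9, 13.3, 14.5, 15.1 and 13.3 CPM in controls and 11.8, 10.9, 12.5, 12.4 and 11.6 CPM in mutants (-0.31, adjusted p = 0.0325). The groups were apart, yet the call was lost without control 1 or 4 or mutant 1, 2 or 5 (adjusted p 0.0542 to 0.0829). Dhcr7, the final reductase, was at 65.9, 60.6, 56.4, 60.3 and 55.5 CPM in controls and 42.2, 36.4, 42.5, 54.3 and 44.0 CPM in mutants (-0.45, SE 0.09, adjusted p = 0.00712). Every mutant was below every control, with mutant 4 closest. Hsd17b7 and Sc5d, which act between these steps, were at -0.18 and -0.28 (adjusted p 0.245 and 0.213), and Sc5d was called without mutant 4 (-0.41, adjusted p = 0.0401).

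The 5 genes of SREBP control did not move together. Insig1, the sterol-sensing retention protein and itself an SREBP target, was at 81.7, 84.9, 82.2, 78.0 and 73.5 CPM in controls and 58.9, 54.9, 64.0, 64.3 and 61.5 CPM in mutants. The groups were well apart (-0.40, SE 0.06, adjusted p = 0.000676). Srebf2 was at 191, 183, 193, 190 and 186 CPM in controls and 169, 150, 158, 178 and 170 CPM in mutants, a small shift of -0.20 (SE 0.05, adjusted p = 0.0304) without overlap. Its call was lost without control 3, 4 or 5 or mutant 1, 2, 3 or 5 (adjusted p 0.0540 to 0.0855). It was also lost under 6 of 10 other alternatives, among them library size alone and no low-count filter. Srebf1, the lipogenic factor gene and an LXR target, went the other way, at 25.3, 23.4, 26.0, 22.8 and 21.3 CPM in controls and 37.1, 35.0, 30.7, 26.0 and 34.6 CPM in mutants. It rose by 0.46 on the log2 scale (SE 0.09, adjusted p = 0.00716), with mutant 4 level with the highest control to 3 digits and every other mutant above (6.5% of all genes tested had the mutants wholly above). Scap and Insig2 had log2 fold changes of -0.03 and -0.05 and overlapping groups.

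Of the exporters and their regulators, Abca1 alone was called. Abca1 was at 43.3, 56.1, 78.3, 72.2 and 66.0 CPM in controls and 82.3, 118, 67.0, 95.9 and 106 CPM in mutants. Mutant 3 lay within the control range, and the gene rose by 0.57 on the log2 scale (SE 0.17, adjusted p = 0.0454). That call was lost without control 1, 2, 4 or 5 or mutant 1, 2, 4 or 5 (adjusted p 0.0606 to 0.127). It was also lost under 5 of 10 other alternatives, DESeq2's size factors (adjusted p = 0.0518) among them. The rest were all 13 mice in a single fit, the replicate block, the Y-linked covariate and the mice with Y-linked RNA alone. Abcg1, its partner in loading lipoproteins, was at 23.4 to 29.9 CPM in controls and 26.5 to 41.0 CPM in mutants (+0.31, SE 0.11, adjusted p = 0.104), and was called without mutant 4 (+0.38, adjusted p = 0.0356). Its change was 0.09 with the Y-linked covariate (adjusted p = 0.850) and 0.07 in the mice with Y-linked RNA alone (adjusted p = 0.933). The receptors Nr1h2 and Nr1h3 had changes of -0.16 and 0.08 and were not called. Nr1h3 was the least abundant of the 31 genes, at 0.42 ± 0.06 CPM per kb in controls, and the sign of its change was negative without mutant 1 (-0.08).

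Genes that handle cholesterol after its synthesis changed little. Npc1, which moves cholesterol out of lysosomes, was at 34.0, 30.6, 40.6, 41.8 and 42.1 CPM in controls and 45.2, 56.0, 40.0, 42.4 and 47.4 CPM in mutants (+0.29, SE 0.11, adjusted p = 0.110). Its partner Npc2 had a change of 0.13 (adjusted p = 0.181). Soat1, which esterifies cholesterol, was at 22.7, 25.1, 29.0, 27.3 and 28.6 CPM in controls and 26.4, 32.9, 25.7, 31.6 and 32.9 CPM in mutants (0.17, SE 0.09, adjusted p = 0.273). The groups overlapped for all 3. The neuronal hydroxylase Cyp46a1 was at 83.5 ± 5.90 CPM in controls and 77.1 ± 6.28 CPM in mutants (SD over 5 mice), which differed by -0.12 on the log2 scale with an adjusted p of 0.317.

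**Figure D2:**
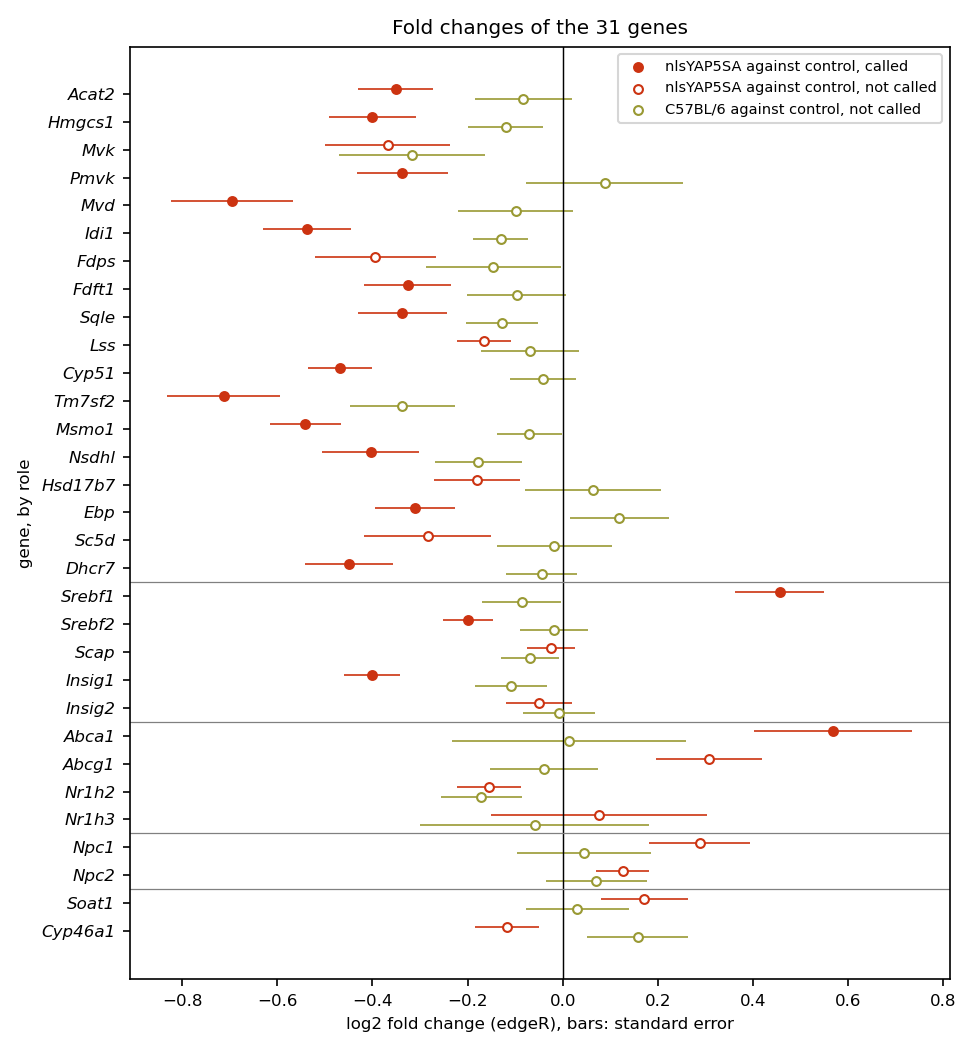
Log2 fold change (horizontal axis) of each of the 31 genes (vertical axis, grouped by role) in nlsYAP5SA against control (red, filled where called) and C57BL/6 against control (green), with bars of 1 standard error from edgeR. All 18 red points of the synthesis genes lie left of 0, from -0.71 to -0.17, and the green points lie between -0.34 and 0.16.

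The fall was uneven among mutants. Averaged over the 18 synthesis genes as log2(CPM + 0.5), with the control mean at 0, the controls were at 0.09, 0.08, -0.05, -0.05 and -0.07 and the mutants at -0.37, -0.60, -0.42, -0.18 and -0.43. Summed over these genes, controls had 1830 to 1960 CPM and mutants 1210 to 1710 CPM. Mutant 2 was the lowest of its group in 15 of the 18 genes and mutant 4 the highest in 14. The exporters Abca1 and Abcg1, averaged the same way, were at -0.35, -0.15, 0.20, 0.17 and 0.13 in controls and 0.40, 0.77, 0.13, 0.31 and 0.55 in mutants. Mutant 2 thus had the lowest synthesis and the highest exporter level of all 13 mice. Synthesis minus exporters ran from -0.25 to 0.44 in controls and from -1.37 to -0.50 in mutants, without overlap, and C57BL/6 replicate 3, at -0.52, fell within the mutant range.

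**Figure D3:**
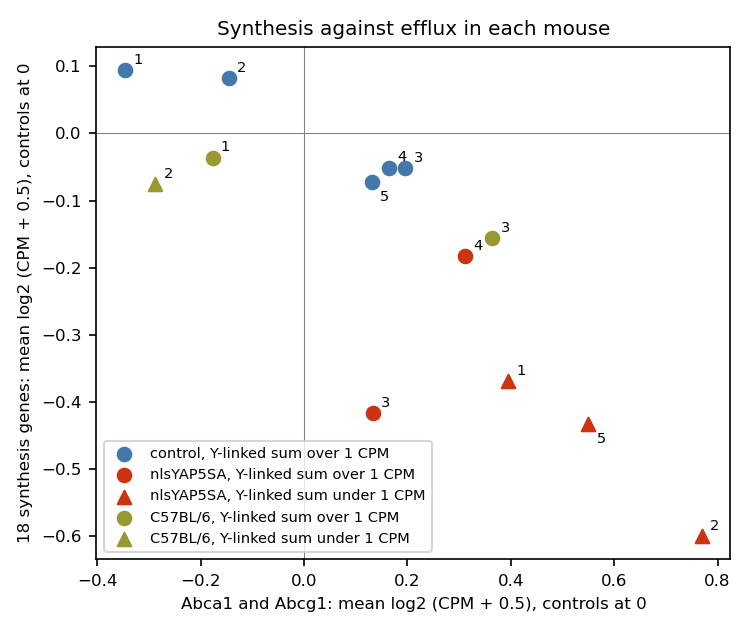
Mean log2(CPM + 0.5) of the 18 synthesis genes (vertical axis) against that of Abca1 and Abcg1 (horizontal axis), both with the control mean at 0, for each of the 13 mice, numbered by replicate, with triangles where the Y-linked sum was under 1 CPM. The nlsYAP5SA mice (red) sit at -0.18 to -0.60 on the vertical axis, below the controls (blue, -0.07 to 0.09).

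Within controls, replicates 1 and 2 had the higher synthesis values and the lower exporter values, and they also had the lowest summed level of 6 astrocyte markers, at 3080 and 3580 CPM against 4770 to 5540 CPM in the other 3. Their sums were also the lowest of the controls for myelinating oligodendrocytes (1770 and 1620 against 2400 to 2570 CPM), neurons (4040 and 4350 against 4840 to 5130 CPM) and endothelium (156 and 158 against 177 to 180 CPM). In mutants the astrocyte sum was 4310 to 6420 CPM, with mutant 2 the highest and mutant 4 the lowest, and 3 of the 6 markers (Slc1a3, Gja1 and Aldoc) were called higher. All 3 calls were lost without control 2, under the replicate block and with the Y-linked covariate. Slc1a3 and Gja1 each lost the call in 4 of the 10 fits that left out a mouse, and Aldoc in 9 of 10. All 4 reactive astrocyte markers rose, with summed levels of 858 to 1120 CPM against 235 to 285 CPM. The study reports tumours in nlsYAP5SA brains. In tumours of another of its mouse models it found vimentin and, focally, GFAP protein. Whether astrocytes or tumour cells carried the RNA of these markers was not tested. Of 8 microglial markers 7 rose, with sums of 481 to 621 against 315 to 392 CPM. The call of Tmem119 (adjusted p = 0.0309) was lost in 6 of the 10 fits that left out a mouse (adjusted p up to 0.0862). The 9 markers of myelinating oligodendrocytes, led by Mbp and Mobp, summed to 1030 to 2100 CPM in mutants and 1620 to 2570 CPM in controls. All 9 had a lower mean and Fa2h alone was called (-0.63, adjusted p = 0.0178), a call lost without control 4 or mutant 1 (adjusted p 0.0521 and 0.0506). Among mutants, mutant 4 had the lowest myelin sum (1030 CPM) and mutant 2 the highest (2100 CPM). Of 4 endothelial markers only Cldn5 was called (-0.44, adjusted p = 0.000499), and the endothelial sum was 127 to 165 CPM in mutants and 156 to 180 CPM in controls. Of 5 markers of oligodendrocyte precursors only Olig1 was called (-0.29, adjusted p = 0.00649), with sums of 360 to 416 against 386 to 410 CPM. Of 7 neuronal markers only Neurod6 was called (-0.985, adjusted p = 2.65e-05), with sums of 4270 to 4660 against 4040 to 5130 CPM. Neurod6 carries Cre in the mutants, so its fall cannot be read apart from the genotype itself. The choroid plexus sum was uneven in both groups, at 10.1 to 304 against 8.61 to 232 CPM, and Folr1 alone of its 5 markers was called (2.20, adjusted p = 0.0133). Neither of the 2 blood markers was called. With the Y-linked covariate the calls of Fa2h, Olig1, Folr1 and Tmem119 were lost too. In the mice with Y-linked RNA alone the 4 reactive astrocyte markers, the Cre locus Neurod6 and 4 of the 7 microglial markers stayed called. The other marker calls were lost, with Fa2h at -0.80 (adjusted p = 0.0818) and Cldn5 at -0.40 (adjusted p = 0.0614). The part of these cell types in the cholesterol genes was not tested.

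Fits that took account of the Y-linked imbalance left the direction of the synthesis genes and lowered the number of calls. With the summed Y-linked level as a covariate, 18 of 18 synthesis genes still had a lower fitted mean, and 3 of the 31 genes stayed called: Cyp51, Msmo1 and Insig1. In the mice with Y-linked RNA alone (2 mutants, 5 controls), 18 of 18 were lower with a median of -0.27, both mutants lay below every control in 12 of 18 (6.37% of all genes tested did), and Msmo1 alone was called (-0.41, adjusted p = 0.0343). Over all genes, calls went from 1761 to 542 and 334. The 3 mutants without Y-linked RNA had synthesis values of -0.60 to -0.37, and those with it -0.42 and -0.18, which overlap. The exporter average of the mutants was 0.40 to 0.77 without Y-linked RNA and 0.13 and 0.31 with it, and synthesis minus exporters was -1.37 to -0.77 without and -0.55 and -0.50 with it, so that both measures parted the mutants by Y-linked RNA. The C57BL/6 mouse without Y-linked RNA went the other way. It had the lowest exporter average of its group (-0.29) and the highest synthesis minus exporters (0.21). Srebf1 was at 0.25 (adjusted p = 0.424) and Abca1 at 0.36 (adjusted p = 0.648) in the mice with Y-linked RNA.

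**Figure D4:**
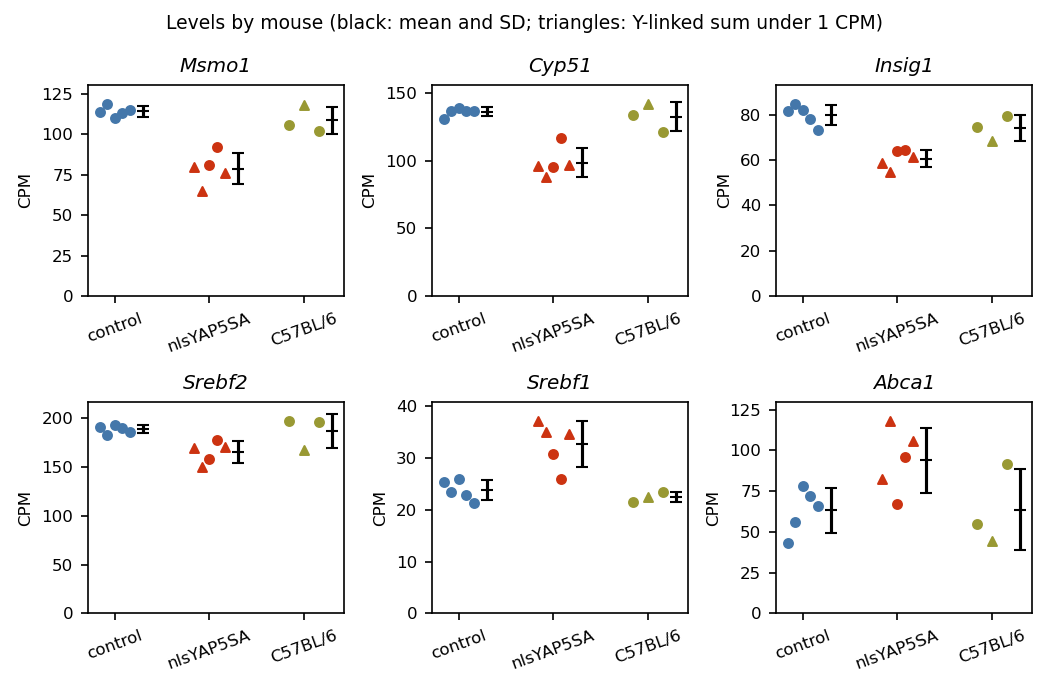
CPM (vertical axes, from 0) of Msmo1, Cyp51, Insig1, Srebf2, Srebf1 and Abca1 in each mouse by group (horizontal axes), with the mean and SD in black and triangles where the Y-linked sum was under 1 CPM. Msmo1, Cyp51, Insig1 and Srebf2 have every mutant below every control, while the mutants of Abca1 overlap the controls.

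A list of 41 other genes of the pathway was set beside the members, and 40 of them could be tested (Soat2 was too low). Of these 40 genes 9 were called lower, where 3.44% of all genes were, and 3 were called higher, a share close to the 7.36% of all genes. Of 12 genes of fatty acid synthesis, all had a lower mean (median -0.16) and 5 were called lower. These were the desaturases Scd1 (-0.56, adjusted p = 0.000194) and Scd2 (-0.27, adjusted p = 0.0159), the acetyl-CoA synthetase Acss2 (-0.48, adjusted p = 6.28e-05), the citrate lyase Acly (-0.18, adjusted p = 0.0494) and the elongase Elovl6 (-0.23, adjusted p = 0.0483). Srebf1, the factor best known for driving fatty acid synthesis, was higher in the same mice. The calls of Acly and Elovl6 were lost in 9 and 7 of the 10 fits that left out a mouse, though not without mutant 4 (highest adjusted p 0.138 and 0.130), and that of Scd2 without control 4 or mutant 1 (adjusted p 0.0532 and 0.0508).

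Of 9 further genes of sterol control, the cholesterol carrier Stard4 (-0.44, adjusted p = 0.00455) and the sterol-responsive membrane protein Tmem97 (-0.40, adjusted p = 0.0409) were lower, and Mbtps1, the protease that first cuts the SREBPs, was higher by a small amount (0.17, adjusted p = 0.0376). Of 7 other LXR targets and lipid export genes, Abcg4 (-0.20, adjusted p = 0.0379) and the lipoprotein lipase Lpl (-0.34, adjusted p = 0.0199) were lower and none was called higher, unlike Abca1. All 7 tested genes of oxysterols and esters had a higher mean. Ch25h, which makes an oxysterol in activated macrophages, was at 1.04 to 1.61 CPM in mutants and 0.123 to 0.667 CPM in controls (+1.56, SE 0.32, adjusted p = 0.00699), and the oxysterol hydroxylase Cyp39a1 was higher as well (+0.48, adjusted p = 0.0135). The 5 genes of the isoprenoid branch had no call and a median of -0.04. The calls of Tmem97, Mbtps1 and Abcg4 were lost in 7, 9 and 6 of 10 fits without a mouse, though not without mutant 4 (highest adjusted p 0.0965, 0.103 and 0.100), and that of Lpl without control 4 or mutant 5 (adjusted p 0.0558 and 0.0614). In the mice with Y-linked RNA alone, 2 of the 12 calls of these other pathway genes remained, those of Scd1 (-0.55, adjusted p = 0.0436) and Acss2 (-0.48, adjusted p = 0.0171). The other 10 kept their sign and lost the call, among them Stard4 (-0.33, adjusted p = 0.277), Ch25h (1.71, adjusted p = 0.125) and Cyp39a1 (0.475, adjusted p = 0.258). With the Y-linked covariate the same calls but that of Ch25h were lost. Tmem97, Mbtps1, Acly, Elovl6, Abcg4 and Cyp39a1 lost their calls under the replicate block as well. Those of Mbtps1, Acly, Elovl6 and Abcg4 were also lost with no low-count filter.

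The C57BL/6 mice asked whether transgene-bearing controls differ from wild-type mice of other litters. None of the 31 genes was called between C57BL/6 and control mice by edgeR or by DESeq2, where 0.169% of 16546 genes were called. At an unadjusted p under 0.05 were 2 of the 31, Tm7sf2 (-0.34) and Idi1 (-0.13). The 0.169% holds for adjusted p and is no background for these 2 genes. Far more of all genes tested fell under the unadjusted cut, and whether the members exceeded that share was not tested. Of the 18 synthesis genes 15 had a lower mean in C57BL/6, with a median of -0.09, and the synthesis average of the 3 mice was -0.04, -0.08 and -0.16. All 3 lay above every mutant, and 2 of them below every control. The exporters spread widely, at -0.18, -0.29 and 0.36, with C57BL/6 replicate 3 above every control.

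Set against the C57BL/6 mice, the same 5 mutants had 6 of the 31 genes called, where 6.38% of 16641 genes were called (2.22% lower and 4.16% higher). These comparisons share the mutants, or the controls, and are not independent. All 18 synthesis genes again had a lower mean, with a median of -0.29. Those called lower were Mvd (-0.61, SE 0.14, adjusted p = 0.0293), Cyp51 (-0.44, SE 0.10, adjusted p = 0.0248), Msmo1 (-0.48, SE 0.10, adjusted p = 0.0222) and Ebp (-0.44, SE 0.09, adjusted p = 0.0201). Their C57BL/6 levels were 31.8, 31.4 and 26.8 CPM for Mvd, 134, 142 and 121 CPM for Cyp51, 106, 118 and 102 CPM for Msmo1, and 15.9, 17.3 and 14.5 CPM for Ebp, above every mutant in each case (the mutants were wholly below in 6.47% of all genes tested and wholly above in 8.71%).

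Insig1 was lower than in the C57BL/6 mice (-0.31, SE 0.08, adjusted p = 0.0409; 74.7, 68.4 and 79.6 CPM) and Srebf1 was higher (0.53, SE 0.11, adjusted p = 0.0242; 21.4, 22.4 and 23.4 CPM). Abca1 was not called against these mice (0.54, SE 0.24, adjusted p = 0.238), of whose levels (55.1, 44.1 and 91.9 CPM) the highest exceeded mutants 1 and 3. With 3 mice in this group the calls were fragile. Each of the 6 was lost without mutant 5 and without C57BL/6 replicate 1, all but Insig1 without C57BL/6 replicate 2, all but Mvd without mutant 1, and some without mutant 2 or 3 or C57BL/6 replicate 3, with adjusted p up to 0.139. With the Y-linked covariate the calls of Mvd and Insig1 were lost (adjusted p 0.0519 and 0.0547). None of the 6 was called in the mice with Y-linked RNA alone (2 mutants, 2 C57BL/6), where the changes were smaller, at -0.43 for Mvd, -0.27 for Cyp51, -0.28 for Msmo1, -0.29 for Ebp, -0.28 for Insig1 and 0.33 for Srebf1 (adjusted p 0.471 to 0.845). Of the other pathway genes, Scd1 (-0.45, adjusted p = 0.0041), Acss2 (-0.49, adjusted p = 0.00126) and Ch25h (2.50, adjusted p = 0.00378) were called here, and kept their calls without any single mouse. All 3 lost them under the replicate block (adjusted p 0.133 to 0.173) and in the mice with Y-linked RNA alone (adjusted p 0.155 to 0.333). Over all genes the block gave 47 calls where the main fit gave 1061. The replicate numbers did not pair these mice (correlations 0.073, -0.151 and -0.275), so a loss under the block says little of a single gene.

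Cell type markers moved in this comparison as well. All 9 markers of myelinating oligodendrocytes had a lower mean in mutants than in C57BL/6 mice (median -0.82), with sums of 1030 to 2100 against 2200 to 3390 CPM, and Mag, Mog, Cldn11 and Fa2h were called lower (-1.196 to -0.755). Each of these 4 calls was lost without mutant 1, mutant 5 or C57BL/6 replicate 2, and those of Mog and Cldn11 also without mutant 3 or 4 or C57BL/6 replicate 1 (adjusted p 0.0508 to 0.195). None held under the replicate block or in the mice with Y-linked RNA alone (adjusted p 0.181 to 0.398 in the latter). All 4 reactive astrocyte markers and 5 of 8 microglial markers were called higher, with sums of 858 to 1120 against 219 to 288 CPM and of 481 to 621 against 330 to 396 CPM. Of 6 astrocyte markers only Gja1 was called (0.39, adjusted p = 0.0432 by edgeR), a call lost in 5 of the 8 fits that left out a mouse. Neurod6, the locus that carries Cre, was the only neuronal marker called (-0.95, adjusted p = 0.00123). Between C57BL/6 and control mice all 9 myelin markers had a higher mean in C57BL/6 (median 0.32) and none was called. The part of these cell types in the cholesterol genes was not tested.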

How the data were processed

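RNA of 13 right hemispheres was sequenced from mRNA libraries (KAPA mRNA HyperPrep). The authors deposited RSEM estimated counts per gene. The submitters' processing notes name cutadapt 1.5, STAR (its version differs between these notes and the study's methods), SAMtools 1.8, RSEM 1.3.0 and GRCm38, and the strand setting is not given in the sources used here. Counts were rounded, and 48435 of 48795 identifiers had a symbol. Each pair of groups was compared in its own fit with edgeR 4.0.16 (R 4.3.3): TMM scaling, filterByExpr (count minimum 10, total 15), the two-sided quasi-likelihood test and Benjamini-Hochberg adjustment over all genes tested, called at 0.05 or less. Alternatives included DESeq2 1.42.0. The fitting code was tested on simulated data. Positions and exon lengths came from GENCODE M21 and promoters from RefSeq. Replicates are separate mice, and the study states that controls and mutants were littermates from 2 matings. Litters are not labelled and no fit had a litter term, so p-values measure the spread between mice without regard to litter. No 2 mice of a group agree within sampling noise. Members, gene lists and tests were chosen with earlier results of these data known. Every member could be named. Full values went to members called in a comparison and to the member of largest fold change in each role, and other pathway genes were named where called in nlsYAP5SA against control. A further marker gene on the oligodendrocyte list is not reported here.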

Additional observations from a re-analysis of the deposited data

Results flagged for a closer look

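In 62 tests of a gene's highest and lowest mouse within the 5 controls or the 5 mutants, 2 genes had a single mouse far from the rest, and chance alone gives about 1 in 20. Both were control replicate 1. Hmgcs1 was at 645 CPM there and 739 to 768 CPM in the other 4 controls, a gap of 0.761 of the range against a critical value of 0.710. Cyp51 was at 131 CPM there and 137 to 139 CPM in the others, a gap of 0.779 of the range. In each case the control lay toward the mutant side, and it still exceeded all 5 mutants for Cyp51 and 4 of 5 for Hmgcs1. Without control replicate 1 the log2 fold changes were -0.44 for Hmgcs1 and -0.48 for Cyp51, and both stayed called.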

How the results depend on the processing

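In nlsYAP5SA against control, all 18 synthesis genes kept a lower mean in each of 20 alternative fits, and Msmo1 alone of the 31 genes kept its call in all of them. The replicate numbers of the labels did not pair these mice (correlations of same-numbered deviations 0.31, -0.16, -0.32, -0.09 and 0.11). A replicate block gave 11 called of the 31 genes here, 15 calls over all genes in C57BL/6 against control, and 47 calls with 0 of the 31 in nlsYAP5SA against C57BL/6. The Y-linked covariate gave 542 calls, 3 of the 31 genes, and -0.013 as the median log2 fold change of efflux and LXR genes, which was 0.192 in the main fit. The mice with Y-linked RNA alone, an alternative chosen after seeing the data, gave 334 calls, 1 of the 31 genes and a median of -0.022. In nlsYAP5SA against C57BL/6 they gave 47 calls, 0 of the 31 genes and a median of 0.089, where the main fit gave 0.229. This alternative has fewer mice. Nr1h3 turned negative with the Y-linked covariate (-0.37) and in the mice with Y-linked RNA (-0.40), and ran from -0.079 without mutant 1 to 0.21 without mutant 4. Scap was at 0.027 with the GC and length offset, which gave 1721 calls and 11 of the 31 genes in nlsYAP5SA against C57BL/6. In C57BL/6 against control, calls over all genes were 16 with at least 10 counts in every sample, 59 with DESeq2's Wald test and 44 with all 13 mice in a single fit. Leaving out a mouse gave 10 (without mutant 5) to 18 (without mutant 4) of the 31 genes called in nlsYAP5SA against control. It was 11 without control 4, mutant 1 or mutant 2. In nlsYAP5SA against C57BL/6 it gave 401 (without C57BL/6 replicate 1) to 1757 calls (without replicate 3) and 0 to 10 of the 31 genes. In C57BL/6 against control the efflux and LXR median ran from -0.15 (without C57BL/6 replicate 3) to 0.001, with -0.049 in the main fit. The cause of these shifts was not tested.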
